A study of Danio rerio with 11 samples.

Results

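The regions described here are methylation peaks that mbt embryos shared with one-cell embryos and with no other sample. They were chosen as the peaks of the mbt list that overlap a one-cell peak by at least 1 bp and overlap no peak of sperm, 3dpf, MTX-3dpf, eye, brain, heart or liver. There were 20851 such peaks among the 122477 of the mbt list, which is 17.0% (95% CI 16.8 to 17.2, Wilson, as for all intervals below, for counting error only). They are called one-cell/mbt-exclusive peaks. The calls themselves chose them, so the counts and scores below describe them, and no test was made.

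CpG methylation was profiled by MBD-seq, in which sheared genomic DNA is bound to a methyl-CpG binding domain protein and the captured fragments are sequenced, so that regions with many methylated CpGs give peaks. All fish were of the Tübingen/AB strain, and DNA was pooled from many individuals. The samples were sperm of adult males, one-cell embryos, embryos at the mid-blastula transition (mbt), embryos at 3 days post-fertilization (3dpf), and eye, brain, heart and liver of adult females, all untreated. A further sample (MTX-3dpf) was raised to 3 days after 400 µM methotrexate, a folate antagonist, had been applied at the one-cell stage. Each condition has 1 methylation-enriched library and 1 peak list, brain being 1 list from lanes 4 and 5, so no difference below has a replicate check. Sperm, one-cell and mbt libraries were sequenced in lane 5, and a methylation-poor brain library of that lane was the control for all 3. Eye, heart and liver were in lane 4 with the lane 4 brain control. The 3dpf and MTX-3dpf libraries were sequenced in a further lane together with methylation-poor libraries of their own samples. Lane, control and stage therefore cannot be told apart between these groups, absence in 3dpf included, whereas sperm, one-cell and mbt share lane and control. List length was 178587 peaks in one-cell embryos, 96505 in sperm, 101868 in 3dpf and 91872 in MTX-3dpf, and in adult tissue it ranged from 45785 in eye to 79008 in brain. Coordinates are those of the Zv9 build, in which nearly every deposited interval is 201 bp wide.

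Vertebrate embryos start from the methylomes of both parents, and sperm and egg differ in which CpGs carry a methyl group. In zebrafish, the paternal pattern is broadly kept after fertilization, while the maternal one is changed during cleavage, before transcription of the zygotic genome starts at about the mid-blastula transition. A peak in one-cell and mbt embryos with none in sperm is therefore a candidate for methylation that came with the egg. No oocyte sample was analysed here, so the egg as a source could not be checked, and a region without a peak can still be methylated.

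The peaks of sperm and 3dpf embryos made most of the selection. Of the mbt peaks, 99288 overlapped a one-cell peak (81.1%), and 71198 of these also had a sperm peak (71.7%). Taken by itself, 3dpf would have excluded 66407 (66.9%) and MTX-3dpf 59693 (60.1%), so the numbers removed by each list depend on the order in which the lists are applied. With sperm first, among the remaining 28090 peaks, 6226 (22.2%, 95% CI 21.7 to 22.7) had a peak in 3dpf embryos, compared with 84.5% (95% CI 84.3 to 84.8) of those that sperm shared. These sets were not matched by peak score. Their median scores were not compared. At the extremes of sharing, which are other sets, the median mbt score was 7.34 for shared peaks with no other list and 106 for those with all 7. The part of score in the contrast between peaks with and without a sperm peak was not tested. After sperm and 3dpf, the other lists took away few peaks. MTX-3dpf removed 469, eye 188, brain 315, heart 25 and liver 16, in this order. The one-cell/mbt-exclusive peaks were thus 74.2% (95% CI 73.7 to 74.7) of the peaks that one-cell and mbt embryos shared without sperm.

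The reverse view, in which each list was the only one to stand in the way, gives the same ranking of sperm and 3dpf. A peak in sperm alone excluded 7018 peaks, a peak in 3dpf alone 1781, in MTX-3dpf alone 386 and in brain alone 278. Eye, heart and liver were the single obstacle for 8, 15 and 16 peaks. For peaks excluded by sperm alone the median mbt score was 11.9, whereas it was 8.98 for those excluded by 3dpf alone and 67.1 for the 15 excluded by heart alone.

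Among the peaks shared by one-cell and mbt embryos, the most frequent cases were presence in all other lists and absence from all of them. Those with a peak in all 7 other lists numbered 26474 (26.7%, 95% CI 26.4 to 26.9), and those with none made up 21.0% (95% CI 20.7 to 21.3). In between, the numbers ran from 4323 peaks with 5 other lists to 12265 with 4. After the ubiquitous and the exclusive ones, the most frequent patterns were sperm with 3dpf, MTX-3dpf and brain (11131 peaks), and sperm with both 3dpf samples (9269 peaks).

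**Figure D1:**
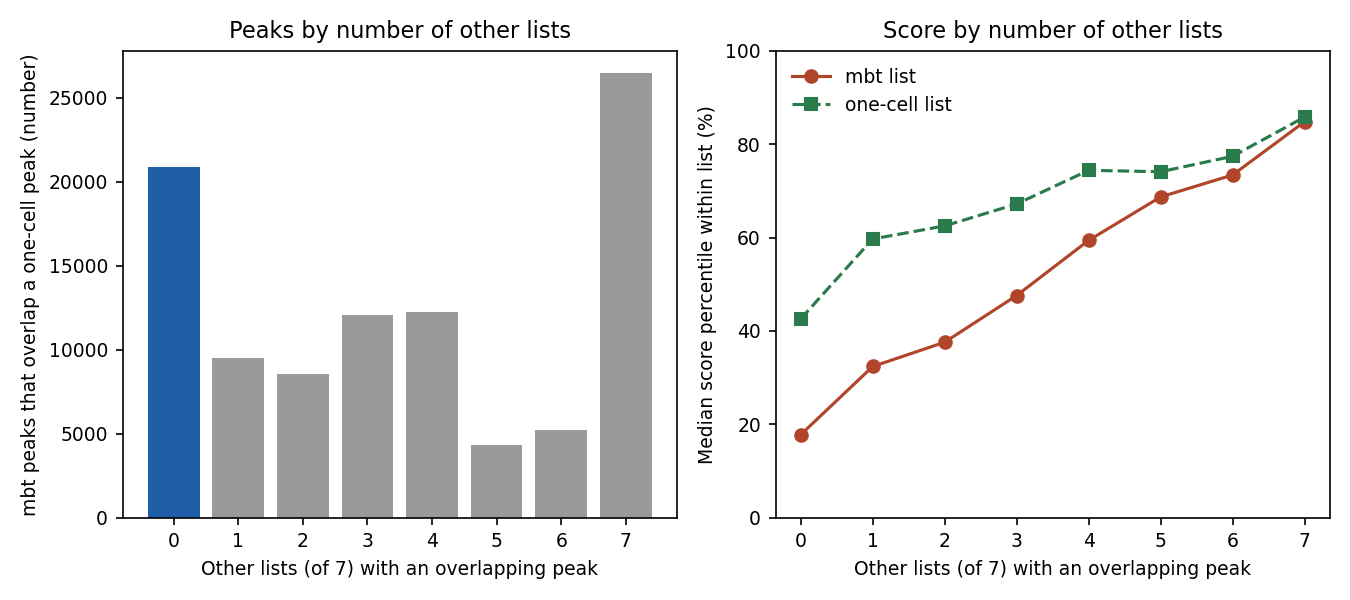
The left panel shows the number of mbt peaks that overlap a one-cell peak, by how many of the 7 other lists also have an overlapping peak, with the 20851 one-cell/mbt-exclusive peaks in blue. The right panel shows the median score percentile of the same peaks within the mbt and one-cell lists, which was 17.8 and 42.6 with no other list and 84.8 and 85.8 with all 7.

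No other pair of lists had as many peaks to itself. For all 36 pairs, peaks found in both lists and in none of the other 7 were counted. One-cell and mbt embryos had 20900 such peaks in the one-cell list (11.7% of it) and 20851 in the mbt list. The next pair, 3dpf and MTX-3dpf, had 5097 in the 3dpf list (5.0%) and 5124 in the MTX-3dpf list (5.58%). One-cell and 3dpf embryos shared 2549 exclusive peaks by the one-cell list. Sperm and one-cell embryos shared 2221 by the sperm list, and sperm and mbt embryos 1321. Lists differ in length, and the longest pair has the most room for exclusive peaks. With the 45785 highest-scoring peaks of every list, pairs were ranked by the larger of their counts. One-cell and mbt embryos then had 838 exclusive peaks in the one-cell list and 773 in the mbt list, and were the fourth pair. The pair with the most had 3381.

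**Figure D2:**
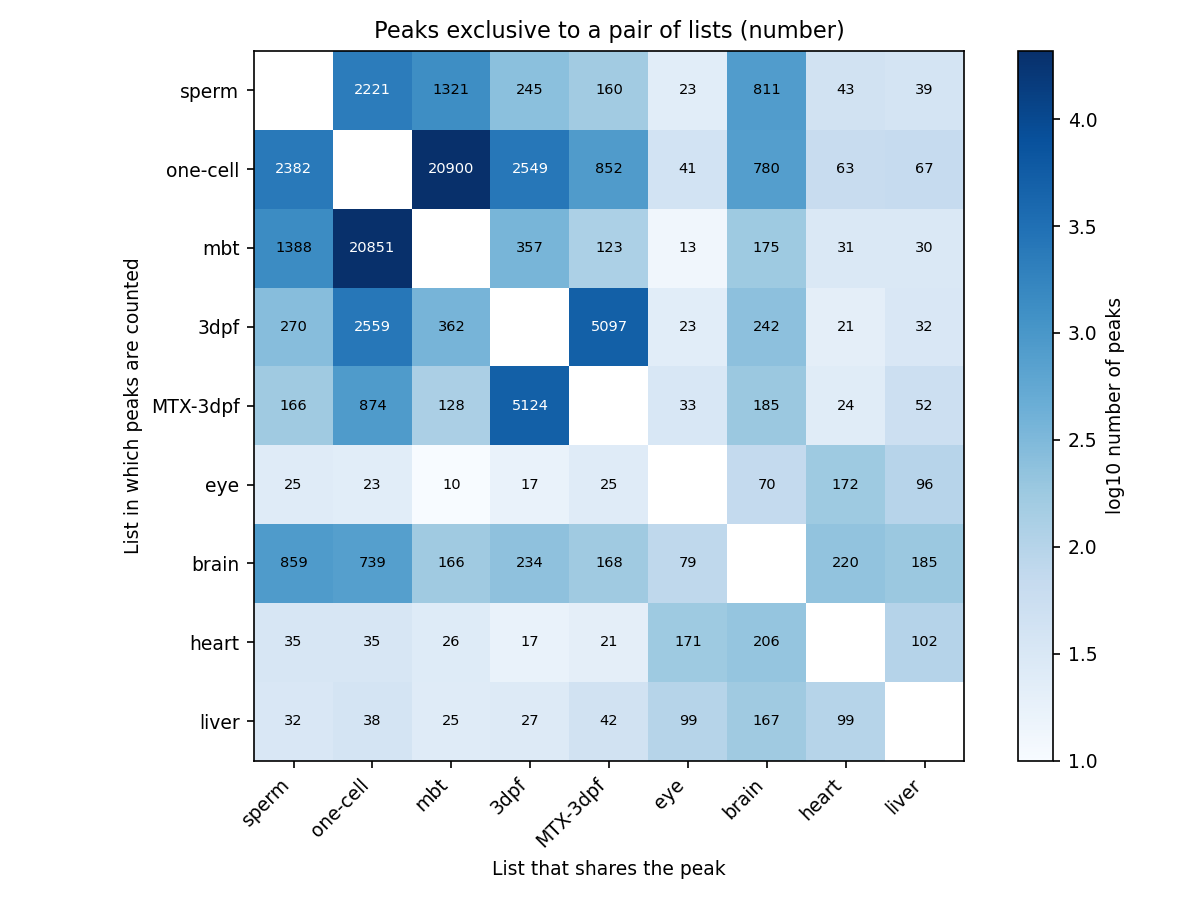
Each cell gives the number of peaks of the row's list that overlap a peak of the column's list and of none of the other 7, with the shade on a log10 scale. The cells of one-cell and mbt embryos hold 20900 and 20851 peaks, and no other cell exceeds 5124.

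The score is the peak caller's magnitude value, given without a unit, and it was used only within a list. Weak and strong refer here to this score alone, which is not a measure of how many CpGs of a region are methylated. In the mbt list, the one-cell/mbt-exclusive peaks were weak. Their median score was 7.34, with quartiles of 5.50 and 9.68 and a range from 1.31 to 299. All other mbt peaks had a median of 29.4 and quartiles of 12.2 and 80.2. The mbt peaks found in no other list scored lower still, with a median of 6.18 and quartiles of 4.45 and 8.49. There were 313 exclusive peaks (1.5%) that scored at or above the median of the mbt list, where 50.1% of all mbt peaks stand.

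In the one-cell list the same regions lay closer to the middle. Their one-cell peaks had a median score of 23.1, with quartiles of 14.8 and 34.0 and a range from 1.34 to 399.8. All other one-cell peaks had a median of 29.1, and those found in one-cell embryos alone had 14.2. At or above the one-cell median were 7950 of them (38.1%), beside 50.0% of the whole list. The median percentile of the exclusive peaks was 42.6 in the one-cell list and 17.8 in the mbt list. For 17817 of them (85.4%, 95% CI 85.0 to 85.9) the percentile was higher in the one-cell list, beside 69.9% of all mbt peaks that overlapped one-cell. A higher rank in the one-cell list was not particular to the exclusive peaks. The other mbt peaks up to mbt percentile 40.0 had a median mbt percentile of 22.8. Those of them that overlapped one-cell had a median one-cell percentile of 55.6. For mbt peaks shared with one-cell and sperm alone, the medians were 34.8 in mbt and 60.9 in one-cell. Lists differ in length and depth, so a percentile is a rank within a library and not a level of methylation.

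**Figure D3:**
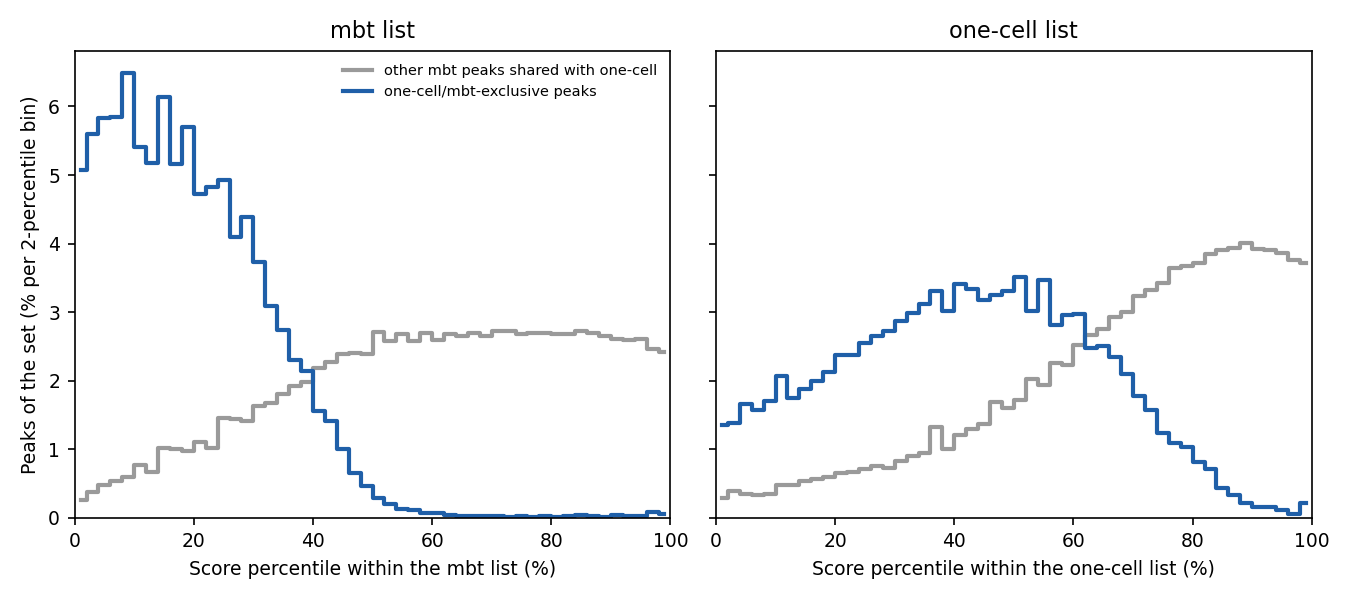
Distribution of score percentiles within the mbt list (left) and the one-cell list (right), in bins of 2 percentiles, as a percentage of each set. Blue, one-cell/mbt-exclusive peaks, with medians of 17.8 and 42.6. Grey, the other mbt peaks that overlap a one-cell peak.

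The mbt list was divided by score into 10 classes of like size, from class 1 (lowest) to class 10. In class 1, with scores up to 5.76, 49.0% of the peaks were one-cell/mbt-exclusive (95% CI 48.1 to 49.9), and in class 2 the share was 47.1%. It was 23.8% in class 4, 8.68% in class 5 and 1.37% in class 6. In classes 7 to 10 it was between 0.196% and 0.416%. Classes 1 to 4 together held 19478 of the exclusive peaks, which is 93.4% (95% CI 93.1 to 93.7). A fall along the classes was not particular to them. The mbt peaks found in no other list made up 31.2% of class 1, 17.1% of class 2 and between 0.155% and 0.735% of classes 7 to 10.

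In the lower mbt score classes, which held most of them, the exclusive peaks had lower one-cell scores than other mbt peaks of the same class. In class 1 their median one-cell score was 18.4, compared with 26.2 for the other mbt peaks of the class that overlapped one-cell. In class 3 these medians were 24.4 and 32.4, and in class 5 they were 34.2 and 39.2. In class 6 the medians were 41.5 and 42.9, and in class 7 both were 47.9. Above that the order varied, with 58.5 and 55.2 in class 8, 59.8 and 66.8 in class 9, and 98.7 and 85.2 in class 10, where the exclusive peaks numbered 24, 27 and 51. Along the one-cell list, the share of peaks that were partners of an exclusive mbt peak was greatest in the middle. It rose from 9.08% in one-cell class 1 to 19.2% in class 5 (95% CI 18.7 to 19.8) and was 0.829% in class 10. Peaks found in one-cell embryos alone followed another course, from 73.4% of class 1 to 5.35% of class 10.

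The one-cell and mbt intervals mostly coincided. The median overlap was 168 bp of 201 bp, with quartiles of 133 and 188 bp. An overlap of at least 100 bp was found for 18061 of the exclusive peaks (86.6%, 95% CI 86.2 to 87.1), beside 90.3% of all mbt peaks that overlapped one-cell. No one-cell peak was shared between exclusive mbt peaks, which the spacing of the lists fixed beforehand. The smallest gap between mbt peaks was 353 bp, more than the 201 bp of a one-cell interval. The one-cell partner itself touched a peak of another list in 195 cases (0.935%).

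The neighborhood of the exclusive peaks was not empty. The nearest peak of any of the 7 other lists was 3829 bp away in the median, with quartiles of 1685 and 8289 bp, and for 25 peaks there was none on the same sequence. By list, the median distance was 4801 bp to sperm, 4864 bp to 3dpf, 5464 bp to MTX-3dpf and 6417 bp to brain. It was 10873 bp to eye, 9976 bp to heart and 9965 bp to liver, whose lists are shorter. The mbt peaks found in no other list had a median distance of 2596 bp. Between 1 and 10 kb from an exclusive peak there were on average 1.48 sperm peaks, compared with 1.67 around the other mbt peaks of score classes 1 to 4. The corresponding means were 1.58 and 1.77 for 3dpf, 1.14 and 1.34 for brain, and 0.683 and 0.807 for eye. For one-cell peaks they were 2.76 and 2.89. Around mbt peaks shared with one-cell and sperm alone, the means were near those of the exclusive peaks. They were 1.54 for sperm, 1.59 for 3dpf, 1.16 for brain, 0.693 for eye and 2.79 for one-cell peaks. Around mbt peaks found in no other list they were higher, at 1.63, 1.75, 1.27, 0.783 and 2.89. These sets were not matched by score. The rule itself excludes nearby peaks only within the interval, and neighboring peaks are not independent.

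High scores and near misses went together. In score classes 1 to 4, 488 of the 19478 exclusive peaks had a peak of another list within 300 bp (2.51%, 95% CI 2.30 to 2.73). In classes 7 to 10, there were 95 of 142 (66.9%, 95% CI 58.8 to 74.1). Of those 142, 64 had peaks of at least 4 of the 7 other lists within this distance. A peak of any other list was within 300 bp of 38 of the 51 in class 10. The sperm list had a peak within 300 bp of 71 of the 142, and liver of 64. Over all classes, 3.40% of the exclusive peaks had another list's peak within 300 bp (95% CI 3.16 to 3.65). The share was higher for mbt peaks found in no other list, at 9.86% (95% CI 9.25 to 10.5). The deposited intervals reach 100 bp from a peak center whatever the width of the original peak, and the part of shifted centers in these cases was not tested.

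**Figure D4:**
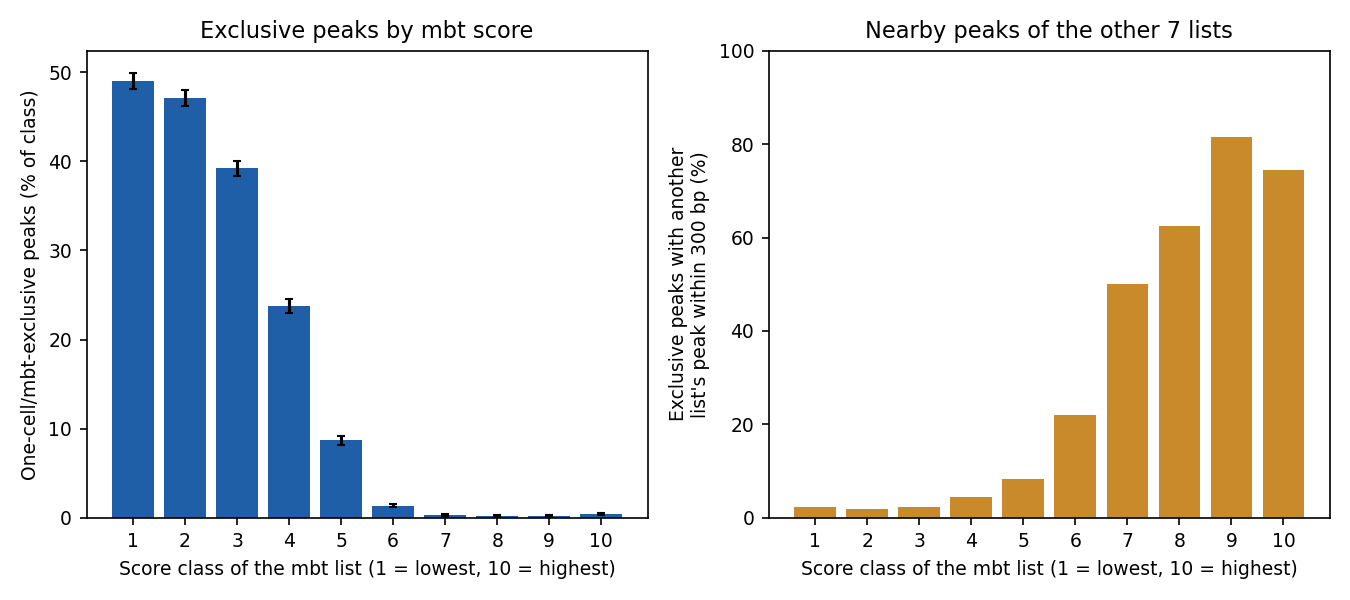
The left panel shows the share of mbt peaks that are one-cell/mbt-exclusive by score class of the mbt list, with Wilson 95% intervals. The right panel shows the share of these peaks that have a peak of another list within 300 bp, which was 2.38% in the lowest part and 74.5% in the highest.

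The strongest one-cell/mbt-exclusive peaks were named by the smaller of their percentiles in the mbt and one-cell lists. The first lay on chromosome 4 from 49031390 to 49031590, with a score of 294 in mbt (percentile 99.8) and 143 in one-cell embryos (percentile 99.8). It was 66 bp from an MTX-3dpf peak with a score of 241 and 68 bp from a 3dpf peak with a score of 381, and 1832 bp or more from a peak of the other 5 lists. Both 3-day samples thus had a peak next to this region that its interval did not reach.

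The second, on chromosome 13 from 23990112 to 23990312, scored 294 in mbt and 122 in one-cell embryos, and all 7 other lists had a peak within 1000 bp. The third, also on chromosome 13, from 19421775 to 19421975, scored 289 and 118. It lay 44 bp from a brain peak and 73 bp from a heart peak. Of the 10 peaks named in this way, 9 had another list's peak within 401 bp.

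The exception was the fourth, on chromosome 16 from 58609345 to 58609545, with scores of 299 in mbt and 118 in one-cell embryos. Its nearest peak, in liver, was 1342 bp away, and all 7 other lists had one between 1342 and 1409 bp from it. Those peaks were at or above percentile 99.5 of their lists.

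The remaining 6 also had close neighbors. On chromosome 22, the peak from 26000769 to 26000969 scored 276 and 116 and was 167 bp from an MTX-3dpf peak. On chromosome 10, the peak from 13367366 to 13367566 scored 280.0 and 115, with eye and heart peaks 193 bp away. On chromosome 8, the peak from 40071948 to 40072148 scored 251 and 107, and its nearest was an eye peak at 401 bp. All 3 had a peak of each of the 7 other lists within 1000 bp.

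On chromosome 14, the peak from 23827216 to 23827416 scored 229 in mbt and 105 in one-cell embryos and had peaks of all 7 other lists within 300 bp, the nearest in sperm at 15 bp. On chromosome 2, the peak from 13659456 to 13659656 scored 228 and 112, overlapped its one-cell peak by 7 bp and was 5 bp from an eye peak. The last, on chromosome 4 from 59192328 to 59192528, scored 242 and 104, with a brain peak at 267 bp.

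Strong peaks that stood far from other lists were few. No peak of the other lists was within 1000 bp for 18081 of the exclusive peaks, of which 17 were in score classes 7 to 10. Of the 262 exclusive peaks at or above percentile 50 in both lists, 99 were that far from other lists. The same ranking among these isolated peaks, applied after their values were seen, gave the chromosome 16 region first. The second was on chromosome 5 from 58282456 to 58282656, with scores of 169.7 in mbt and 62.3 in one-cell embryos, 1080 bp from an MTX-3dpf peak.

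The next 3 isolated regions in this ranking had higher percentiles in one-cell than in mbt embryos, as had 85.4% of all exclusive peaks. On chromosome 21, the peak from 43730928 to 43731128 scored 218 in one-cell embryos and 71.2 in mbt (percentile 76.8), and the nearest peak, in sperm, was 2993 bp away. On chromosome 4, the peak from 39787300 to 39787500 scored 211 in one-cell embryos and 58.0 in mbt (percentile 72.7), with the nearest peak in brain at 12633 bp. Also on chromosome 4, the peak from 53111682 to 53111882 scored 109 and 49.9, 3576 bp from a sperm peak. These 3 regions overlapped their one-cell peaks by 196, 190 and 193 bp.

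At the limit of the rule for presence, most mbt scores were low, as they were for exclusive peaks in general. A single base of overlap with the one-cell peak was found for 17 exclusive peaks, with mbt scores from 2.72 to 14.1. The strongest was on chromosome 20 from 43253991 to 43254191, which scored 14.1 in mbt and 21.6 in one-cell embryos. With overlaps of up to 10 bp (157 peaks), the median mbt score was 5.78 and the highest 228. Just outside, intervals met without overlap for 13 mbt peaks, such as that on chromosome 5 from 36295527 to 36295727, with an mbt score of 159. For absence, 12 exclusive peaks met another list's interval without overlap, and the strongest, on chromosome 13 from 43824331 to 43824531, scored 162 in mbt and 89.0 in one-cell embryos beside a heart peak. A further 12 peaks were excluded by 1 bp, among them one on chromosome 24 from 42889184 to 42889384 that scored 254 and 104 and met heart.

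The exclusive peaks were spread over all 25 chromosomes, with between 9.33 per Mb on chromosome 4 and 18.2 per Mb on chromosome 25. Between 14.4% and 19.6% of the mbt peaks of a chromosome were exclusive. Relative to all other mbt peaks, chromosome 11 had the highest ratio, with 845 exclusive peaks (ratio 1.19, 95% CI 1.11 to 1.27), followed by chromosome 13 with 840 (1.11, 95% CI 1.04 to 1.19). The lowest ratios were those of chromosome 4, with 579 exclusive peaks (0.821, 95% CI 0.758 to 0.890), and chromosome 20 (0.929, 95% CI 0.870 to 0.993). Of the 25 ratios, 22 were between 0.9 and 1.1. Relative to the other mbt peaks of score classes 1 to 4 alone, the ratio was 1.22 for chromosome 11 and 1.04 for chromosome 13. Chromosome 10 then had 1.14, chromosome 4 had 0.727 and chromosome 20 had 0.936.

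**Figure D5:**
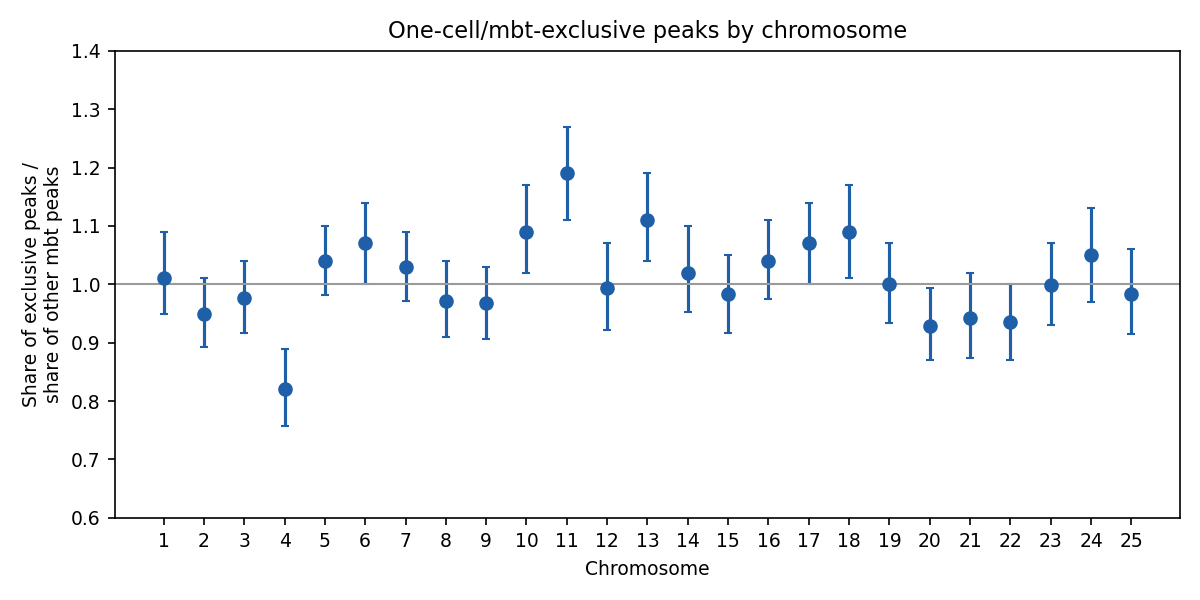
Share of the one-cell/mbt-exclusive peaks on each chromosome divided by the share of all other mbt peaks there, with Wilson 95% intervals of the former. Chromosome 4 was lowest, with a ratio of 0.821, and chromosome 11 highest, with 1.19.

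On chromosome 4 the low share was in the distal part, which is rich in repeats and poor in protein-coding genes. Beyond 25 Mb, this chromosome held 297 exclusive peaks (1.42%, 95% CI 1.27 to 1.59) and 2.34% of all other mbt peaks (95% CI 2.25 to 2.44). Up to 25 Mb the order was the opposite, with 1.35% (95% CI 1.20 to 1.52) and 1.04%. The other mbt peaks of score classes 1 to 4 had 2.61% beyond 25 Mb, the mbt peaks found in no other list 1.73%, and the peaks shared with one-cell and sperm alone 1.18%. In windows of 1 Mb with at least 20 mbt peaks, the exclusive share ranged from 1.79% to 41.9%, with a median of 17.5% over 1363 windows. The 5 windows with the lowest shares were all on chromosome 4 beyond 25 Mb. They were picked by their values, and the lowest, from 37000001 to 38000000, had 1 exclusive peak among 56. The highest, on chromosome 23 from 20000001 to 21000000, had 18 of 43.

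For exclusive peaks in the upper part of both lists, the order was the opposite on the same chromosome arm. Of the 262 at or above percentile 50 in both lists, 21 lay on chromosome 4 beyond 25 Mb (8.02%, 95% CI 5.30 to 11.9), compared with 1.87% (95% CI 1.75 to 2.0) of the 45792 other shared peaks at or above those percentiles. Among the 99 of them with no other list's peak within 1000 bp, there were 9. By mbt score class, between 0.885% and 1.79% of the exclusive peaks of classes 1 to 4 lay there, compared with between 2.39% and 2.79% of the other mbt peaks. In class 5 the shares were 2.35% and 2.25%, and in class 6 they were 9.52% and 2.57%. The upper classes had few exclusive peaks on this arm, with 5 of 40 in class 7, 3 of 24 in class 8, 0 of 27 in class 9 and 3 of 51 in class 10.

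A smaller share of the exclusive peaks than of the other mbt peaks lay near chromosome ends. Shares of each set are compared here, not peaks per Mb. Within 5 Mb of an end lay 23.9% of them (95% CI 23.3 to 24.5), and 29.5% of all other mbt peaks (95% CI 29.2 to 29.8). The other mbt peaks of classes 1 to 4 had 27.7% (95% CI 27.1 to 28.2) there, and were not matched to the exclusive peaks by score within these classes. The mbt peaks found in no other list had 26.9%, and those shared with one-cell and sperm alone 26.1%. Unplaced scaffolds held 3.14% of the exclusive peaks and 4.06% of the others.

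Within 10 kb, most exclusive peaks had no other next to them. The median gap between consecutive ones was 40400 bp, and 6150 (29.5%, 95% CI 28.9 to 30.1) had another within 10000 bp. Within 50000 bp, 79.3% had one (95% CI 78.7 to 79.8). These shares depend on how dense the peaks are, with a median of 14.9 exclusive peaks per Mb over the chromosomes. They were not set beside other mbt peaks, so they do not show clustering beyond that density. The next peak along the mbt list was also exclusive for 19.2% of them (95% CI 18.6 to 19.7), compared with 16.6% (95% CI 16.4 to 16.8) for the other mbt peaks. Joined at gaps below 10000 bp, they formed 17482 groups, of which 14701 held a single peak, 2319 held 2 and 18 held 5 or more.

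The 2 largest groups had 8 exclusive peaks each. One spanned 34.2 kb on chromosome 17, from 31135584 to 31169755, with mbt scores from 4.54 to 14.6 and one-cell scores from 14.8 to 75.6. This span held 10 mbt and 10 one-cell peaks in all, with 3 sperm peaks, 1 in each 3-day sample, 2 in brain and none in eye, heart or liver. The other, on chromosome 9 from 51834254 to 51888411, held 13 mbt and 15 one-cell peaks. Sperm and both 3-day samples had 3 peaks each there, brain 2, and eye, heart and liver 1 each.

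The third group was the only one of the 5 largest without a peak of another list. It covered 30.2 kb on chromosome 25, from 33299328 to 33329494, where all 7 mbt peaks were exclusive, with a median score of 7.94. One-cell embryos had 9 peaks in it, and the partners of the exclusive peaks had a median score of 31.7. The last groups, of 6 exclusive peaks each, lay on chromosome 7 from 16037170 to 16059238 and on chromosome 9 from 3760212 to 3782505, with 2 and 3 sperm peaks in between. All exclusive peaks of the 5 groups had mbt scores of 14.6 or less, below the mbt list's median of 20.4.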

How the data were processed

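According to the methods and the submitters' processing notes, the authors aligned reads to Zv9 with BWA 0.5.8c, kept properly paired reads above a mapping quality limit, called peaks with MACS2 2.0.10.20120703 against methylation-poor libraries, and replaced each peak by its center with 100 bp to each side. The deposited files give the interval and a peak score, without a unit, which was used only within a list. A score percentile is the rank of a peak in its list. Read depth of the libraries was not used here, so the precision of a single peak is unknown, and intervals cover counting error only.

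From the 9 lists, overlaps (at least 1 bp), distances between interval ends and shares with Wilson 95% intervals were obtained in SciPy 1.17.1, pandas 2.3.3 and NumPy 2.4.6 under Python 3.11.15, figures in Matplotlib 3.10.9, and the overlap function was tested on simulated lists. With 1 list per condition, no test was made. Chromosome ends were taken from the outermost peaks of all lists. Peaks were named by the smaller percentile of both lists (10 peaks), the largest groups (5), the strongest at the limits of the rule, and the extreme chromosomes (2 each way). Isolated peaks, windows and the strong peaks of chromosome 4 were chosen after their values were seen. The members and lists were chosen with earlier results of these data known. Alternatives were another overlap, distance, score limit, list length, counting unit and set of lists. No Zv9 sequence or annotation was used here, so genes and base composition were not analysed.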

Additional observations from a re-analysis of the deposited data

How the results depend on the processing

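The counts rest on 1 library per condition, and the depth behind a peak is unknown, so a region without a peak can lie just under the caller's limit. No paired analysis was possible because no condition has replicates. Base composition was not run, since it needs a Zv9 sequence. Of 106 recomputed values, 60 stayed within 1.5 times (counts), within the 95% interval (shares, ratios and medians) or at the same rank (pairs of lists). The number of exclusive peaks stayed between 18081 and 27869 unless weak peaks were left out. With mbt and one-cell peaks at or above their median score, and all peaks of the other lists, it was 262, or 0.569% of the shared peaks. Their median scores were then 30.1 in mbt and 56.3 in one-cell embryos, the median distance to another list was 404 bp, 1.53% had another exclusive peak within 10000 bp, and the chromosome 4 ratio turned to 3.03. With every list at or above its median score, the number was 5998 (13.0%), with median scores of 26.5 and 50.4, a distance of 5835 bp, 10.1% near another and a chromosome 4 ratio of 1.05. With equal numbers of highest-scoring peaks, it was 773 (2.76%), with 42.1 and 65.8, 4527 bp, 1.55% and a chromosome 4 ratio of 1.83, and one-cell and mbt embryos ranked 4 among the pairs. In the second and the third of these settings, the weak peaks of the other lists no longer count against a region. Requiring an overlap of 100 bp, for presence and absence, gave 21.7% of shared peaks, medians of 7.67 and 23.8, 3463 bp and 27.8%. Absence was looser in this setting, since a smaller overlap with another list no longer excluded a peak. Such peaks had no gap to that list, which shortened the distance. Requiring absence within 1000 bp gave 18.2%, a one-cell median of 22.8, 4690 bp and 26.4%. Without the condition on sperm, the exclusive share was 28.1%, the medians 8.10 and 26.0, the distance 2253 bp and the share near another 37.1%. Without that on 3dpf these were 22.8%, 7.54, 23.9, 3372 bp and 31.5%. Without that on MTX-3dpf the share was 21.4% and the distance 3728 bp, and without that on brain the share was 21.3%. Where a condition was dropped, the distance was still measured to peaks of that list too. The readmitted peaks overlap that list and so had no gap to it. The shorter distances therefore followed from the setting itself and show nothing about the neighborhood. Within 5000 bp of another lay 15.7%, and within 50000 bp 79.3%.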
